A study of Mus musculus with 3 samples.

Results

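Cd69, Cd83, Cd86, Cd80, Cd44 and Icosl encode 6 surface proteins by which activated B cells are recognized or through which they act on T cells. The genes were chosen by name, and each had 1 row in the deposited table of 27088 genes. RNA was sequenced from B cells that were sorted from the spleens of female BALB/c mice. The mice were 6 weeks old when purchased and are labelled as 13 weeks old. How these ages relate to the collection on day 36 is not stated. In the PBS and SJMHE1 groups, allergic rhinitis was induced with ovalbumin (OVA). The mice received 10 μg OVA with 2 mg Al(OH)3 by intraperitoneal injection on days 0, 7 and 14, followed by 100 μg OVA into the nose daily from day 21 to 27 and again on days 29 to 35. The groups differed in the injections on days 0, 14 and 28, which contained PBS alone or 10 μg of SJMHE1, a small peptide of the parasitic worm Schistosoma japonicum, emulsified in incomplete Freund's adjuvant. The peptide and the adjuvant therefore cannot be told apart. On day 36 the spleens were collected, and within each group the samples of 3 mice were mixed, which gave 1 library per group. The Control library of normal mice, the other library of the 3 in the series, was not analysed here.

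A resting B cell shows little CD69, CD80 or CD86. Engagement of the B cell receptor, of CD40 or of Toll-like receptors induces CD69 first, and CD69 holds the cell in lymphoid tissue by drawing the sphingosine phosphate receptor S1PR1 away from the surface. CD83 protects MHC class II and CD86 from removal by the ubiquitin ligase MARCH1. CD80, CD86 and ICOSL belong to the B7 family, whose members bind CD28, CTLA-4 or ICOS on T cells and thereby help or restrain them. CD44 is a receptor for hyaluronan that marks activated and migrating lymphocytes. ICOSL differs from CD80 and CD86 in that resting B cells already carry it, and its level falls when it meets ICOS.

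The markers moved in different directions between the 2 libraries. Values given with PBS or with SJMHE1 are those of the library of that group. Icosl was higher in the SJMHE1 library than in the PBS library, while Cd83, Cd44, Cd86, Cd80 and Cd69 were lower. Of the 12433 genes compared below, 5929 were higher and 6453 lower. Cd83 and Cd44 were the lowest relative to the PBS library, with 1.57-fold and 1.59-fold lower values, and Icosl was 1.40-fold higher. None of the 6 genes differed by more than 2-fold. All values are of RNA, and the level of the surface proteins was not measured in these libraries. With 1 pooled library per group there is no replicate check, no test was made across groups, and the intervals given below are 95% intervals of the read counts, which cover counting error only.

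The genes lie on 5 chromosomes of the mouse genome build GRCm38 and are protein-coding. Cd69 is at chr6:129267325-129275436 on the minus strand, Cd83 at chr13:43784775-43803132 on the plus strand, and Cd44 at chr2:102811141-102901665 on the minus strand. Icosl is at chr10:78069302-78079525 on the plus strand. The related genes Cd86 and Cd80 share chromosome 16, where Cd86 is at chr16:36603869-36666081 on the minus strand and Cd80 at chr16:38455561-38496335 on the plus strand, 1.79 Mb apart. In GENCODE M21, the transcript with the longest complete coding sequence has 5 exons in Cd69, Cd83 and Cd80, 7 in Icosl, 8 in Cd86 and 19 in Cd44. The encoded proteins have 199 residues for CD69, 196 for CD83, 306 for CD80, 309 for CD86, 322 for ICOSL and 780 for the longest form of CD44. No exon of another annotated gene overlapped an exon of the 6 genes.

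RefSeq promoters on GRCm38.p6 were matched for 3 of the 6 genes, Icosl, which was higher, and Cd44 and Cd80, which were lower. They are shown because they allow genes with opposite directions to be set side by side. The bases before the RefSeq start are printed 5′ to 3′ on the strand of the gene, and capitals mark matches to the motifs searched. The regions are chr10:78069118-78069301 for Icosl, plus strand, cut where an annotated exon begins, chr2:102901666-102901915 for Cd44, minus strand, and chr16:38458683-38458932 for Cd80, plus strand. The Icosl and Cd44 regions adjoin the gene starts given above. The Cd80 region instead lies within the gene span given above, downstream of its annotated start at 38455561.
Icosl promoter: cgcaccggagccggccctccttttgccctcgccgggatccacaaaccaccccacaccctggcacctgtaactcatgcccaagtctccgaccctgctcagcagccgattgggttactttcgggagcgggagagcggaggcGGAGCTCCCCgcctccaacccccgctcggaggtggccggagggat
Cd44 promoter: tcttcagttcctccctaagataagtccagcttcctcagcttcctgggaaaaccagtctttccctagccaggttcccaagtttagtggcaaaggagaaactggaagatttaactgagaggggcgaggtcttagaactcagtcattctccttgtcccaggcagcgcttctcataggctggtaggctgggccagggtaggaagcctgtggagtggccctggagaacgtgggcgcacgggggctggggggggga
Cd80 promoter: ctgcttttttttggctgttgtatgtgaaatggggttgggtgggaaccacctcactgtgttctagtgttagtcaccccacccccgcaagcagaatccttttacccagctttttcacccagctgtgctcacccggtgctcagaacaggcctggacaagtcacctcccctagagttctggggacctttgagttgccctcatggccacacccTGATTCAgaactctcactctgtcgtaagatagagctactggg
Both strands were searched for AP-1 (TGANTCA), CRE (TGACGTCA), GAS (TTCNNNGAA), E-box (CACGTG), SP1 (GGGCGG), an ETS site (ACCGGAAG) and the NF-kB consensus. The Icosl region, which was cut to 184 bases, held an NF-kB match. Such a match occurs in 7.25% of the 32851 uncut promoters of 250 bases in the same RefSeq table. The Cd80 region held an AP-1 match, which occurs in 6.75% of them, and the Cd44 region held none of the motifs. A match describes these letters and not the binding of a factor.

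The level of the markers spanned 92.7-fold in the PBS library and 73.8-fold in the SJMHE1 library. The unit is FPKM, fragments per kilobase of gene length and per 1000000 mapped reads, in which different genes can be compared. Cd83 had the highest FPKM in both libraries and Cd80 the lowest. In the PBS library the order was Cd83, Icosl, Cd69, Cd44, Cd86 and Cd80, and the counting intervals of neighbours did not overlap. In the SJMHE1 library Cd86 stood above Cd44, at an FPKM of 7.61 and 7.29, with overlapping intervals, so that these 2 genes were not apart beyond counting error. The order depends on the gene length used. The deposited FPKM values are nearly proportional to the length of all annotated exons merged. With libraries scaled to their count sums, they imply 1.13 to 1.14 times that length for each gene. The merged length is 6509 bases for Cd69, whereas its main coding transcript has 1687 bases. Per kilobase of the main coding transcript, an alternative chosen after seeing the data, Cd69 came first in both libraries, at 304 and 274 counts per kilobase with libraries scaled to a sum of 1000000, followed by Cd83 at 259 with PBS, and by Icosl at 188 and Cd83 at 165 with SJMHE1.

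**Figure D1:**
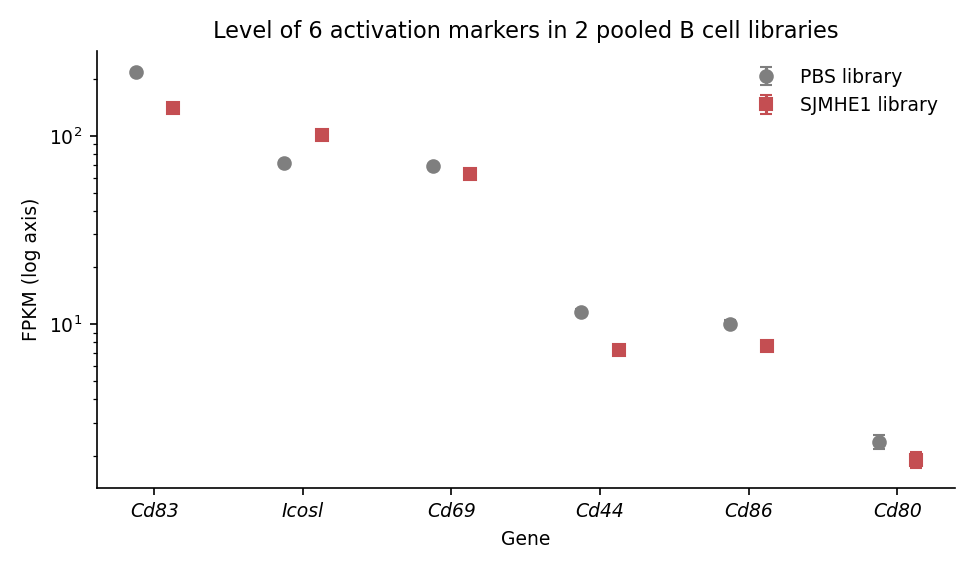
FPKM (log axis) of each gene in the PBS library (grey circles) and the SJMHE1 library (red squares); bars are 95% counting intervals and are mostly smaller than the symbols. Icosl is the 1 gene with the red square above the grey circle, at 101 against 72.1.

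CD69, a C-type lectin, is the early marker of lymphocyte activation. Cd69 had 24783 counts and an FPKM of 69.4 with PBS, and 23722 counts and an FPKM of 62.7 with SJMHE1. The log2 ratio of SJMHE1 to PBS was -0.15, with a counting interval from -0.17 to -0.12. This was the smallest difference among the 6 genes, 1.11-fold, and 31.5% of all genes compared had a lower ratio. S1pr1, which encodes the receptor that CD69 retains inside the cell, had an FPKM of 76.5 with PBS and 89.2 with SJMHE1, a log2 ratio of 0.22.

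CD83 is an immunoglobulin superfamily protein of activated B cells and mature dendritic cells. Cd83 had 31012 counts and an FPKM of 219.67 with PBS, and 20964 counts and an FPKM of 140.28 with SJMHE1. The log2 ratio was -0.65, with an interval from -0.67 to -0.62. Its rank among all genes by FPKM went from 162 to 274. Marchf1, which encodes the ligase that CD83 opposes, had an FPKM of 31.4 and 32.3, a log2 ratio of 0.04. Cd74, which encodes the invariant chain of MHC class II, a partner of CD44, had an FPKM of 4643 and 4297, a log2 ratio of -0.11.

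CD80 and CD86 are the B7 ligands of CD28, which costimulates T cells, and of CTLA-4, which restrains them. Cd86 had 2018 counts and an FPKM of 10.03 with PBS, and 1620 counts and an FPKM of 7.61 with SJMHE1, a log2 ratio of -0.40, for which the interval ran from -0.49 to -0.30. Cd80 had 484 counts and an FPKM of 2.37 with PBS, and 411 counts and an FPKM of 1.90 with SJMHE1, a log2 ratio of -0.32. Its interval, from -0.51 to -0.13, was the widest of the 6 because of the low counts. The pair kept a similar proportion. Cd86 was 4.23 times as high as Cd80 with PBS and 4.01 times with SJMHE1, and the interval of this change on the log2 scale, from -0.29 to 0.13, included 0.

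Icosl, which encodes the B7 protein that binds ICOS, stood apart from Cd80 and Cd86. Icosl had 18285 counts and an FPKM of 72.1 with PBS, and 27108 counts and an FPKM of 101 with SJMHE1. The log2 ratio was 0.49, with an interval from 0.46 to 0.51, and Icosl ranked 948 from the highest among the ratios of the genes compared. Icosl was 7.19 times as high as Cd86 with PBS and 13.3 times with SJMHE1, and this change of 0.88 on the log2 scale had an interval from 0.79 to 0.98. Cd83 was 3.05 times as high as Icosl with PBS and 1.39 times with SJMHE1.

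CD44 binds hyaluronan and supports adhesion and migration. Cd44 had 4325 counts and an FPKM of 11.62 with PBS, and 2870 counts and an FPKM of 7.29 with SJMHE1. The log2 ratio was -0.67, with an interval from -0.74 to -0.60. Cd44 went from rank 3854 to rank 5601 among all genes by FPKM. Of the genes that make hyaluronan, Has3 had an FPKM of 0.41 and 0.46, Has1 had 0 counts in both libraries, and Has2 had 4 counts with PBS and 0 with SJMHE1. With 0 counts, a true value of up to 3 counts is possible, or 0.0622 with PBS and 0.0585 with SJMHE1 on the scale of 1000000 counts per library. The other CD44 ligand gene Spp1 had an FPKM of 2.33 and 2.51, and the hyaluronan receptor gene Hmmr had 1.28 and 0.98.

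The markers were then set against all genes. Genes entered this comparison when they reached an FPKM of 1 in either library and were not listed at 0 in the other, and all 6 markers were among the 12433 genes that met this. A log2 ratio past 1 in either direction was found for 0 of the 6 markers and for 6% of all genes compared. The 6 markers are protein-coding, and of the 9900 protein-coding genes among those compared, 2.63% were past 1, while 6.52% were lower and 4.27% higher past 0.5. Past 0.5, Cd83 and Cd44 were lower, 2 of 6, while 9.82% of all genes were lower and 17.1% were past it in either direction. Icosl, at 0.49, lay just inside this bound, which 7.28% of all genes exceeded upward, and 3 other scalings placed it outside. The median log2 ratio of the 6 markers was -0.36, and that of all genes compared was -0.01, with 90% of them between -0.82 and 0.64.

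**Figure D2:**
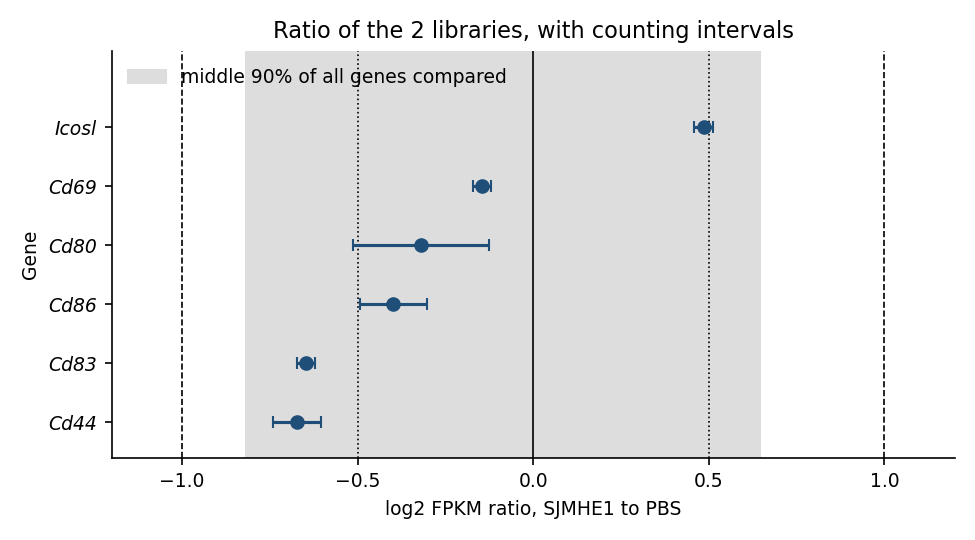
Log2 FPKM ratio of SJMHE1 to PBS for each gene, with 95% counting intervals; dotted and dashed lines are at 0.5 and 1 in either direction, and the grey band holds the middle 90% of the 12433 genes compared. Icosl is on the right at 0.49, the other 5 genes are on the left, and all 6 are inside the band.

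Genes of other surface proteins of B cell activation were found on both sides of 0. Of a list of 30 such genes, 29 were in the table. For the lists, the FPKM minimum was set to 0.1. Of the 18426 genes that met it, 15.4% were past a log2 ratio of 1, with a median of -0.03. Of these, 8485 were higher and 9757 lower. At the minimum FPKM of 1 used above, the share past 1 was 6%, and 2.63% for protein-coding genes. In the list, 13 genes were higher and 16 lower, with a median of -0.02, which other scalings turned to as much as 0.03. Past a log2 ratio of 1 were 3 genes, all of low level. Il2ra, which encodes a chain of the interleukin-2 receptor, had an FPKM of 0.70 and 0.23, Tnfrsf9, which encodes the costimulatory receptor 4-1BB, had 0.62 and 0.21, and Tnfsf9, which encodes its ligand, had 0.54 and 1.34. Among abundant genes, chosen after their values were seen, Cd38 had a log2 ratio of 0.52 and the integrin gene Itgb1 had -0.66, whereas Cd40, Fcer2a and Il4ra had 0.09, -0.01 and 0.01.

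In the rest of the B7 family, 3 of 4 genes in the table were lower in the SJMHE1 library. Of all 18426 genes with the same filter, 9757 were lower. Vsir, which encodes the inhibitory protein VISTA, had an FPKM of 8.33 with PBS and 4.72 with SJMHE1, a log2 ratio of -0.82. Cd274, which encodes PD-L1, had 38.5 and 28.7, a log2 ratio of -0.42, close to that of Cd86. Pdcd1lg2, which encodes PD-L2, had 4.73 and 4.67, and Cd276 had 0.65 and 0.69, and the counting intervals of both ratios included 0.

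The genes of the receptors for the B7 proteins, which belong to T cells, were lower in the SJMHE1 library and low in both. Cd28 had an FPKM of 1.65 with PBS and 0.29 with SJMHE1, a log2 ratio of -2.51. Ctla4 had 4.11 and 1.48, and Icos had 0.83 and 0.23, with log2 ratios of -1.47 and -1.85. In the list of T cell markers, 12 of 12 genes were lower, 10 of them past a log2 ratio of 1, with a median of -1.64. Cd3e, a defining T cell gene, had an FPKM of 1.77 and 0.39. The summed FPKM of that list was 148 with PBS and 102 with SJMHE1, and no gene of it was at 0. Most of the sum came from Cd2, which mouse B cells also express, and from Lck.

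Dendritic cells and NK cells also express several of the 6 markers or their partners, and their genes were lower as well. Of the dendritic cell markers, 8 of 9 were lower, with a median of -0.93 and a summed FPKM of 150 with PBS and 84.5 with SJMHE1, most of it from Ccr7, which B cells also express. The ratios of this list ran from -2.46 for Siglech, a marker of plasmacytoid dendritic cells, with an FPKM of 2.14 and 0.39, to 0.56 for Zbtb46, a transcription factor gene of conventional dendritic cells, with 0.44 and 0.65. Of the NK cell markers, 6 of 6 were lower, with a median of -1.37 and a summed FPKM of 12.3 and 5.85, and none of either list was at 0. The B cell markers did not move in this way. Of 10 genes, 8 were higher and 2 lower, with a median of 0.06 and a summed FPKM of 3132 and 3299. They were not all level, because Cr2 had an FPKM of 136 and 218, a log2 ratio of 0.68. Cr2 was the 1 gene of this list past 0.5 in either direction. In bulk libraries, fewer cells of a type and less RNA per cell cannot be told apart. Of the macrophage markers, 6 of 10 were higher, with a median of 0.07, and of the neutrophil markers 3 of 7, with a median of -0.22. The part of any of these cell types in the lower values of Cd83, Cd44, Cd86, Cd80 and Cd69 was not tested.

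**Figure D3:**
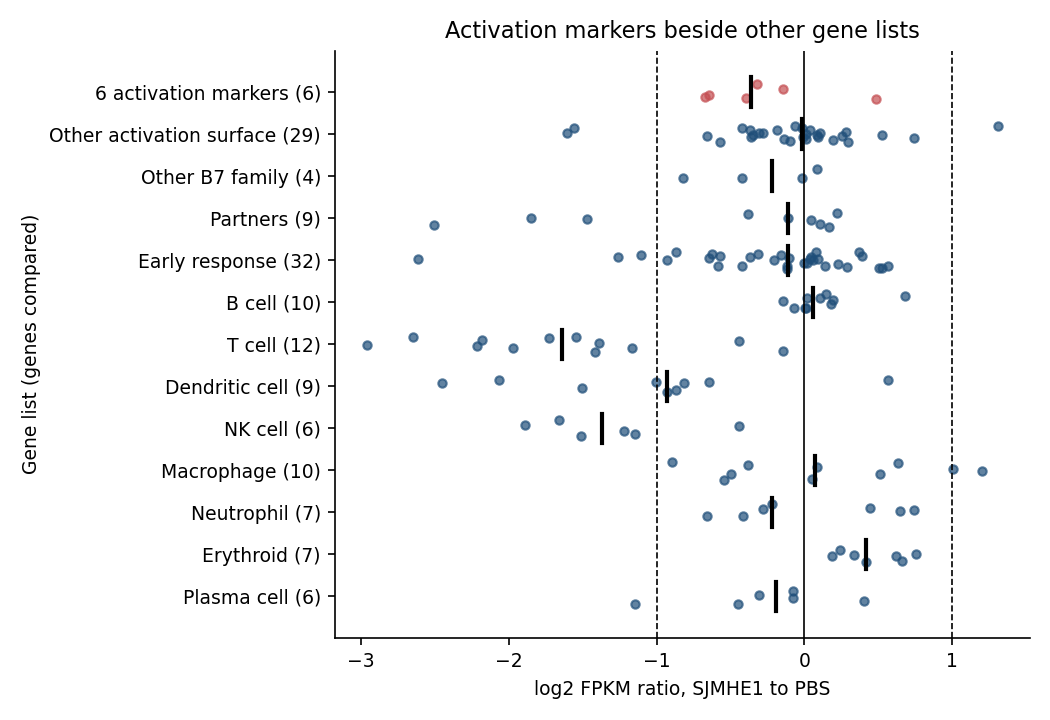
Log2 FPKM ratio of SJMHE1 to PBS for single genes (points) in each list, with the number of genes compared in parentheses; black bars are medians, dashed lines are at 1 in either direction, and the vertical scatter of points has no meaning. The 6 activation markers (red) lie between -0.67 and 0.49, and the T cell and NK cell lists lie to the left of 0.

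Transcripts that rise within hours of B cell activation moved in both directions. Of 32 early response genes, 14 were higher and 18 lower, with a median of -0.11. Of all genes with the same filter, 46.0% were higher. Past a log2 ratio of 0.5, 9 of the 32 genes were lower and 3 higher. Of all genes at a minimum FPKM of 1, 9.82% were lower and 7.28% higher past it. Past a log2 ratio of 1 were Nr4a3, an orphan nuclear receptor gene induced by antigen receptors, with an FPKM of 2.65 and 1.23, and the chemokine genes Ccl3, with 9.25 and 3.86, and Ccl22, with 0.43 and 0.07. All 3 were lower in the SJMHE1 library, and Ccl22 rested on 56 and 10 counts. These 3 of 32 genes stand beside 15.4% of all genes with the same filter that were past 1. That share depends on the filter. At a minimum FPKM of 1 it was 6%, and 2.63% for protein-coding genes. The list was also read by family, a grouping made after its values were seen. The 3 Nr4a genes were lower, with log2 ratios from -1.11 to -0.65, the latter that of Nr4a1. The other families were on both sides of 0. Of 8 genes of the NF-kB pathway, 5 were lower and 3 higher, from -0.57 for Tnfaip3 to 0.39 for Nfkb2. Of 4 Fos and Jun genes, which encode the AP-1 factors, 3 were higher and 1 lower, from -0.12 for Junb to 0.52 for Fos, and the 3 Egr genes ranged from -0.10 for Egr3 to 0.57 for Egr1.

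The direction of each marker was the same under 8 ways of scaling the libraries. The log2 ratio ranged from -0.68 to -0.61 for Cd44, from -0.65 to -0.60 for Cd83, from -0.40 to -0.35 for Cd86, from -0.32 to -0.22 for Cd80, from -0.15 to -0.10 for Cd69 and from 0.48 to 0.53 for Icosl.

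**Figure D4:**
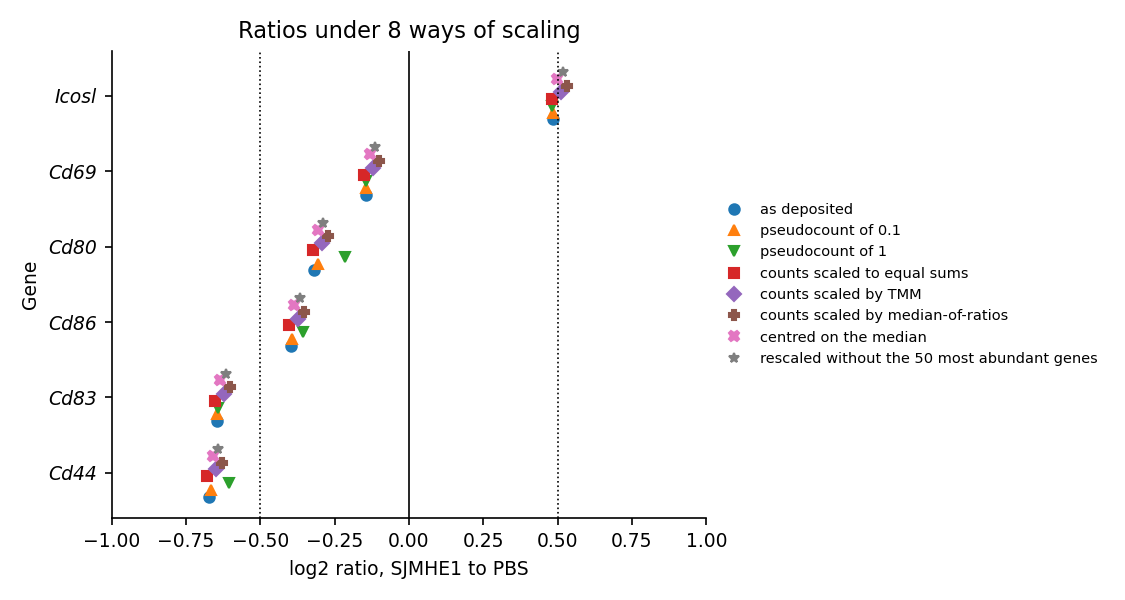
Log2 ratio of SJMHE1 to PBS for each gene (rows) under 8 scalings (symbols), with dotted lines at 0.5 in either direction. No symbol crosses 0, and those of Icosl fall on both sides of 0.5, between 0.48 and 0.53.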

How the data were processed

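Splenic B cells were sorted by flow cytometry, ribosomal RNA was removed with probes, and libraries were sequenced by LC-BIO. The submitters' processing notes name bcl2fastq 2.0, HISAT2, StringTie, DESeq2, limma and the build mm10, with no role for each, and the use of strand in counting is not given in the sources used here. The authors deposited a read count for each gene, not normalized, with sums of 48267168 for PBS and 51280237 for SJMHE1. The FPKM values deposited by the authors were scaled by gene length and library size and rounded to 2 decimals. For 2023 genes that reached an FPKM of 20 in each library, the log2 ratio of the counts, scaled to equal sums, differed from that of the FPKM by -0.01 in the median. In the table, 2 further columns of per-sample values, whose names match no sample label, were not used, so no comparison with the Control group was made.

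The log2 ratio of FPKM, SJMHE1 to PBS, was computed without a pseudocount. Its 95% interval was taken from the share of the 2 counts by the exact Clopper-Pearson method, that of an FPKM from the exact Poisson interval, and that of a change in the ratio of 2 genes from the normal approximation to 4 Poisson counts. Intervals cover counting error only, and sequencing reads without molecular identifiers are not independent molecules. No test across replicates is possible with 1 library per group, so edgeR's count test was not run. The 6 genes and the 12 gene lists were chosen with earlier results of these data known. Named were the 6 genes, partners and B7 genes with an FPKM of at least 0.1, and genes of the activation and early response lists past a log2 ratio of 1. Has1 and Has2, below that minimum, were added to complete the hyaluronan synthases. Genes of the cell type lists and families were chosen after their values were seen. Of the gene identifiers, 27025 were in GENCODE M21 on GRCm38, and 23503 had the same coordinates there. For Icosl, 1 annotated transcript extends beyond the end in the table. The calculations were tested on simulated libraries drawn with counting error only, so this checks the code and not variation between mice. The changes planted in them were larger than those of the 6 markers. The versions were matplotlib 3.10.9, scipy 1.17.1, pandas 2.3.3, numpy 2.4.6 and Python 3.11.15, with edgeR 4.0.16 in R 4.3.3 for TMM factors.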

Additional observations from a re-analysis of the deposited data

How the results depend on the processing

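No paired analysis was possible because a single pooled library stands for each group. Alternatives for comparisons with the Control group were not made. The directions of the 6 markers were the same under every scaling and pseudocount tried, and 0 of 6 were past a log2 ratio of 1 in each. Some ratios left their counting intervals. With median-of-ratios size factors, Cd69 was at -0.10, Cd83 at -0.60 and Icosl at 0.53. Without the 50 most abundant genes they were at -0.11, -0.62 and 0.52, and with TMM Cd83 was at -0.62. These scalings moved the median of all genes by 0.03 to 0.04, and Icosl was past 0.5 under all 3. On the reported FPKM ratios, 2 of 6 were past 0.5, Cd83 and Cd44.

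The number of genes past a log2 ratio of 1, 302 higher and 444 lower, followed the filter by its construction. Dropping the filter gave 1367 and 2018, a minimum FPKM of 1 in each library gave 101 and 151, a minimum of 5 in either gave 52 and 93, and protein-coding genes alone gave 89 and 171. The numbers were 100 and 146 with a pseudocount of 1 and 905 and 1221 past 0.5.

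The median of the other activation surface genes, -0.02, changed sign to 0.0071 with TMM, 0.026 with median-of-ratios and 0.012 without the 50 most abundant genes. In the same order, the partners were at -0.086, -0.067 and -0.081, and the B cell markers at 0.087, 0.11 and 0.092. Centring put the partners at -0.10, median-of-ratios put the plasma cell markers at -0.15, and an FPKM minimum of 1 put the B7 family at -0.42. With a pseudocount of 1, which shrinks ratios of low genes, the T cell, dendritic cell and NK cell medians were -0.94, -0.42 and -0.42. Where no construction is named, the cause was not tested.

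Per kilobase of merged exons, 6 of 6 markers kept their place in the order by FPKM in both libraries. Per kilobase of the main coding transcript, chosen after seeing the data, 1 of 6 did in the PBS library and 4 of 6 in the SJMHE1 library. Depth limits Cd80, with fewer than 500 counts in each library, the most.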

Other observations

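The annotation in the table places 5 of the 6 markers, all but Cd44, on the external side of the plasma membrane. Of the 26 genes compared that carry the term B cell activation, to which Cd86 and Icosl belong, 14 were higher and 12 lower in the SJMHE1 library, with a median log2 ratio of 0.01 and 1 gene below -1. Of the 22 genes of T cell costimulation, 5 were higher and 17 lower, and 4 were below -1. Their median of -0.36 lies midway between the values of Cd86 and Cd80, which belong to this group, so it is not separate from them. Past 1 were 18.2% of these 22 genes and 3.85% of the 26 before. Of all genes with the same filter, 15.4% were past 1 and 46.0% were higher. The share past 1 was 6% at a minimum FPKM of 1, and 2.63% for protein-coding genes there. The terms named here were not set in advance. In the KEGG group of cell adhesion molecules, which holds Cd86, Cd80 and Icosl, 43 of 97 genes were higher and 53 lower. Of these 97 genes, 23.7% were past a log2 ratio of 1, 6 above and 17 below, against 15.4% of all genes with the same filter. T cell genes were lower in the SJMHE1 library, and their part in these counts was not tested.

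Within 100000 bases of the markers, 14 other genes passed the filter of an FPKM of at least 1. Beside Cd69, which had a log2 ratio of -0.15, the 3 neighbours were on both sides of it. Clec2d, a lectin gene whose product is a ligand of an NK cell receptor, had an FPKM of 17.9 with PBS and 32.5 with SJMHE1, a log2 ratio of 0.86. The lectin gene Clec12a had 1.64 and 0.85, a log2 ratio of -0.95, and 2310001H17Rik had a log2 ratio of -0.28. Beside Cd86, Ildr1 had an FPKM of 2.14 and 0.86, a log2 ratio of -1.32, the furthest from 0 of the 14. The 5 neighbours of Cd80 had log2 ratios from -0.17 to 0.28. Beside Icosl, at 0.49, the 5 neighbours had log2 ratios from -0.24 to 0.17. These neighbours were named after their values were seen.

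Of the remaining marker lists, erythroid genes were higher in 7 of 7 cases, with a median of 0.42 and a summed FPKM of 151 with PBS and 198 with SJMHE1. Of the macrophage markers, 6 of 10 were higher, with a median of 0.07, whereas their summed FPKM was 35.6 with PBS and 30.2 with SJMHE1. C1qb had an FPKM of 1.22 and 2.45 and C1qc of 0.95 and 2.19, both past a log2 ratio of 1, and Cd68 had a log2 ratio of -0.90. Of the neutrophil markers, 3 of 7 were higher, with a median of -0.22, whereas their summed FPKM was 317 and 418. Most of this sum came from S100a8 and S100a9, with log2 ratios of 0.64 and 0.44. Of the plasma cell markers, 1 of 6 was higher, with a median of -0.19 and a summed FPKM of 517 and 443. The genes named here were chosen after their values were seen.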
